A study of Rattus norvegicus with 6 samples.

Results

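The NF-kappaB genes described here are the 5 DNA-binding subunits Nfkb1, Nfkb2, Rel, Rela and Relb and the 5 inhibitors Nfkbia, Nfkbib, Nfkbie, Nfkbiz and Tnfaip3. Nfkbiz is grouped with the inhibitors as an IkB family member, although its product is nuclear and acts with p50 on target genes. These 10 genes were taken by name from a deposited table of 37203 genes, in which each had a row. All 10 were among the 16066 genes with enough counts to test. The RNA was that of rat alveolar tissue, taken from the bone that holds the teeth, in a study of orthodontic tooth movement with and without corticision, a surgical cut into cortical bone made to hasten the movement. All animals thus had teeth moved, and no group without tooth movement was analysed here. The 6 libraries carry the titles case 5, case 6 and case 9, whose source field reads without corticision, and control 5, control 6 and control 10, whose source field reads with corticision. Titles and source field point opposite ways in their usual sense, so groups keep their title names here, and a positive difference means a higher value in case. The labels give no strain, age, sex or time after surgery and name no animal for any library, so the replicate spread behind each p-value may be technical.

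NF-kappaB is a family of transcription factors that bind DNA as pairs and drive genes of inflammation, survival and lymphoid tissue. In resting cells the cytoplasmic inhibitors, called IkB proteins, hold the pairs outside the nucleus until cytokine, Toll-like or related receptors activate the IkB kinase and the inhibitors are degraded. Several family members are themselves targets of NF-kappaB, which forms feedback loops, and in bone the pathway acts downstream of RANK in osteoclast formation. The canonical arm works mainly through Rela with the product of Nfkb1, the non-canonical arm through Relb with the product of Nfkb2.

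Stretches upstream of the members' annotated starts are shown because the family's binding sequence, the kappaB consensus, lies in some of them. The consensus was searched on both strands in the 250 bases upstream of the start in the RefSeq promoter table of assembly GRCr8. It matched in 6 of the 9 members with an entry, namely Nfkb2, Rel, Nfkbia, Nfkbie, Nfkbiz and Tnfaip3, and in 6.33% of all 33469 windows of the same length. Nfkb1, Rela and Nfkbib had no match in this window, and Relb had no entry. Matched bases are in capitals, each stretch reads 5′ to 3′ on the gene's strand, and matches on opposite strands or shifted by a base can overlap. For Tnfaip3 and Rel the matched stretch nearer the start is printed, and the other stretch of each and that of Nfkbie are not.
Nfkbia, GRCr8 chr6:78597082-78597115, minus strand: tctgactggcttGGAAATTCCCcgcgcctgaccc
Nfkbiz, GRCr8 chr11:58251696-58251720, plus strand: tctttttggcctGGGAATTTCCagc
Tnfaip3, GRCr8 chr1:15544013-15544058, minus strand: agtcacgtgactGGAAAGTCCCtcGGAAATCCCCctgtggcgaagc
Nfkb2, GRCr8 chr1:255108342-255108373, plus strand: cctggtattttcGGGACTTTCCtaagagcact
Rel, GRCr8 chr14:101921998-101922032, minus strand: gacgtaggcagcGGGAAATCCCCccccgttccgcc
The Nfkbia and Nfkbiz stretches hold the same bases read on opposite strands, GGGAATTTCC, which 0.0687% of all windows hold on either strand. Nfkb2 and Tnfaip3 share GGGACTTTCC, held by 0.0956% of all windows. A match describes letters in this window and is not evidence of binding in this tissue.

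Library totals ranged from 10886303 to 14433740 counts, of which the 10 members took 5833 to 9310. On the first principal component of log2 CPM, case 5 and control 5 lay at -34.8 and -77.2 and the other 4 libraries between 24.9 and 30.7, so results are also given without these. Levels are in CPM, counts scaled to a fixed library total, with totals adjusted by TMM, a trimmed mean of ratios between libraries. CPM is not corrected for gene length, so levels are compared between libraries and not between genes. The defining markers of bone tissue were present in every library: the summed level of 8 osteoblast and bone matrix markers was 44745 to 86191 CPM in case and 51705 to 72919 in control. In bulk tissue, fewer cells of a type and less RNA per cell cannot be told apart.

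None of the 10 members passed the test between case and control. Over all 16066 genes edgeR's quasi-likelihood test gave 0 calls at a Benjamini-Hochberg adjusted p under 0.05 (0% of tested genes), and the adjusted p of every member was 0.999. At an unadjusted p under 0.05 stood 1 member, Nfkbiz, against 4.15% of all tested genes, and 666 genes in all; DESeq2 called 21 genes and limma-voom 0, with 0 members among them. The libraries of the groups did not overlap in 2 members, Nfkb1 and Nfkbiz, against 8.47% of all tested genes. Without both libraries numbered 5 they did not overlap in 6 members, against 46.8% of all tested genes. The median log2 fold change of the members was -0.02, equal to the -0.02 of all tested genes, with 6 of 10 negative against 53.7% of all tested genes. The largest difference of either sign was that of Nfkbiz.

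**Figure D1:**
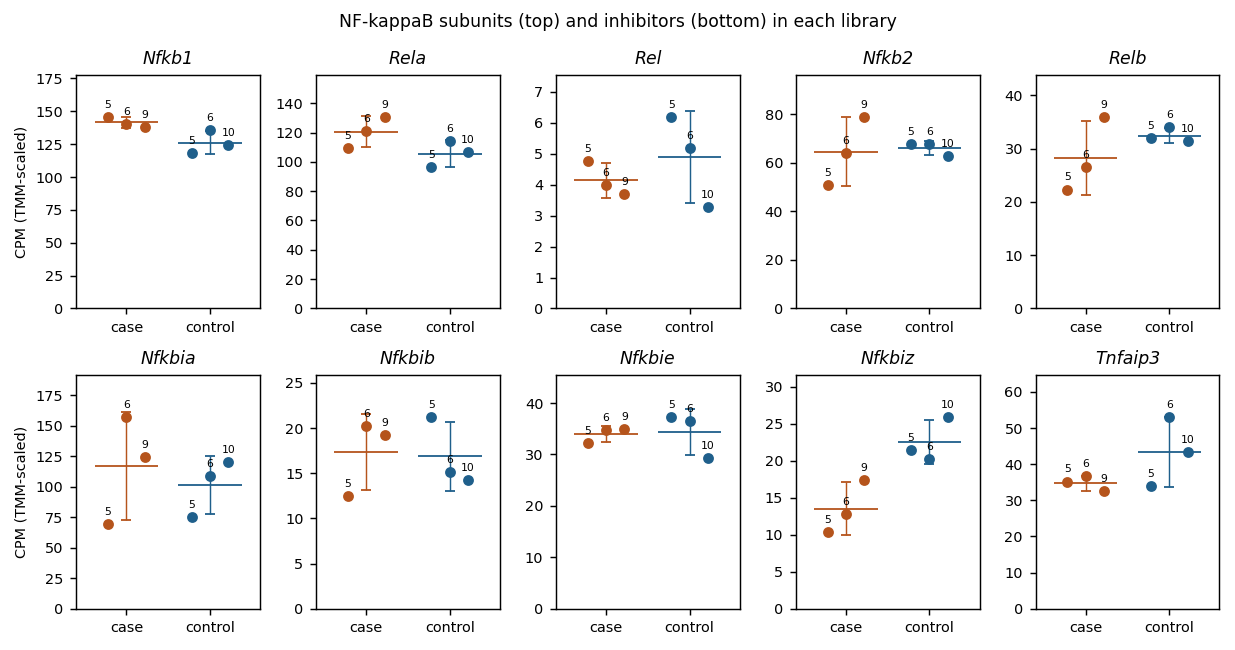
Level of each member in CPM, on axes from 0, with 1 point per library labelled by its title number; horizontal lines are group means and error bars are SD (n = 3). Nfkbiz lies between 10.4 and 17.4 CPM in case and between 20.3 and 25.9 in control, while Nfkbia is lowest in both libraries numbered 5.

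Among the subunits of the canonical arm, Nfkb1 encodes the precursor of the p50 subunit. It stood at 145.9, 140.5 and 138.2 CPM in the case libraries (5, 6, 9) against 118.4, 135.5 and 124.1 in the controls (5, 6, 10). Every case library lay above every control library, but by little, since the lowest case and highest control value were close. The value of case 9 had an exact Poisson 95% interval of 131.6 to 145.0 CPM, from counting error only. That of control 6 was 129.2 to 142.0 CPM, so these intervals overlapped. The means were 141.5 ± 3.98 and 126.0 ± 8.72 CPM (SD, with n = 3 per group in the whole text), and the fitted log2 fold change was 0.17 (SE 0.13, 95% interval -0.13 to 0.47) with an unadjusted p of 0.233 and an adjusted p of 0.999 in edgeR. Nfkb1 was also among the steadiest genes: its log2 CPM ranged over 0.30 across the 6 libraries, a range wider than in only 4.85% of tested genes.

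Rela encodes p65, the subunit that carries the main activation domain of the canonical pair. Its levels were 109.7, 121.1 and 130.8 CPM in the case libraries (5, 6, 9) against 96.2, 114.1 and 106.7 in the controls (5, 6, 10). Case 5 lay below control 6, so the groups overlapped. The log2 fold change was 0.19 (SE 0.14, 95% interval -0.14 to 0.52), with an edgeR adjusted p of 0.999.

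Rel encodes c-Rel, a subunit best known from lymphoid cells. It had the fewest reads of the family, with 60, 60 and 44 counts in the case libraries (5, 6, 9) against 71, 66 and 36 in the controls (5, 6, 10). The highest and the lowest library were both controls, at 6.199 CPM in control 5 (exact Poisson 95% interval 4.84 to 7.82, counting error only) and 3.28 in control 10 (2.30 to 4.54). The log2 fold change of -0.24 had an SE of 0.32 and a 95% interval of -1.0 to 0.52. It was -0.03 without control 5 and -0.42 without control 10. The 8 B cell markers summed to 189 to 288 CPM in case and 91.1 to 213 in control. Control 10 was the lowest for both, but the markers were highest in case 5 and Rel in control 5. Of the 8 B cell markers, 7 had a positive log2 fold change, with a median of 0.80, opposite in sign to Rel. Their part in the Rel values was not tested.

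In the non-canonical arm, Nfkb2 encodes the precursor of p52 and Relb its partner subunit. Nfkb2 was at 50.8, 64.0 and 78.9 CPM in the case libraries (5, 6, 9) against 67.7, 67.8 and 62.6 in the controls (5, 6, 10). The control libraries lay close together, and the case libraries spread to both sides of them. Relb did the same, at 22.3, 26.5 and 36.0 CPM in the case libraries against 32.0, 34.0 and 31.4 in the controls. The SD of Relb was 6.999 CPM in case and 1.38 in control, and that of Nfkb2 was 14.1 and 2.98; the difference in spread was not tested. Log2 fold changes were -0.03 (SE 0.18) for Nfkb2 and -0.20 (SE 0.20) for Relb, with edgeR adjusted p of 0.999 for both. With 1 library left out, that of Relb was between -0.41 (without case 9) and -0.03 (without case 5).

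**Figure D2:**
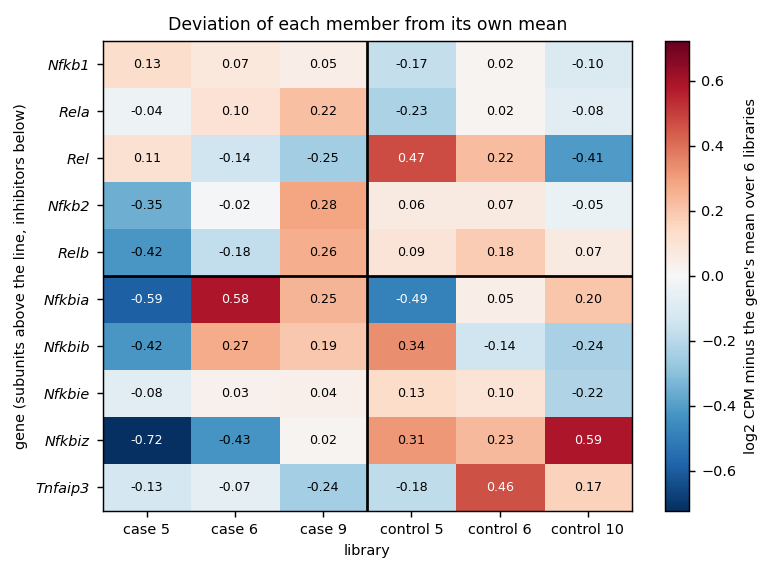
Log2 CPM of each member minus its own mean over the 6 libraries, as colour and number; rows are genes, columns libraries, and the lines part subunits from inhibitors and case from control. Nfkb2 and Relb are lowest in case 5 (-0.35 and -0.42) and highest in case 9 (0.28 and 0.26), and Nfkbia is low in case 5 (-0.59) and control 5 (-0.49).

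The cytoplasmic inhibitors bind NF-kappaB pairs and are removed when the IkB kinase marks them. Nfkbia, which encodes IkB alpha and is resynthesised quickly under NF-kappaB itself, varied most of the 3. Its levels were 69.7, 157.3 and 124.7 CPM in the case libraries (5, 6, 9) against 75.0, 108.6 and 120.8 in the controls (5, 6, 10). Both libraries numbered 5 were the lowest, and among the other 4 the case libraries lay above the controls, case 9 by little above control 10. The means of 117.2 ± 44.3 and 101.5 ± 23.7 CPM gave a log2 fold change of 0.21 (SE 0.31, 95% interval -0.52 to 0.94) and an edgeR adjusted p of 0.999. The difference turned to -0.06 without case 6, the library on which its sign rested, and was 0.50 without case 5.

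Myeloid markers were low in the same 2 libraries as Nfkbia, as were osteoclast and skeletal muscle markers. The 10 neutrophil markers summed to 9246 CPM in case 5 and 7119 in control 5, and to between 16233 and 20369 CPM in the other 4 libraries. All 10 were in the table, and only Ltf was at 0 in any library, in all but case 5. The 9 macrophage and monocyte markers summed to 1249 and 1213 CPM in case 5 and control 5 and to between 1532 and 2139 CPM elsewhere. The 7 osteoclast markers summed to 4261 and 4241 CPM in case 5 and control 5 and to between 5829 and 7782 elsewhere. The 8 skeletal muscle markers summed to 124 and 8.29 CPM there and to between 325 and 1196 elsewhere. The 8 markers of tooth-forming cells went the other way, at 458 and 89.6 CPM in case 5 and control 5 and between 0.638 and 7.77 elsewhere. The part of any of these markers in the Nfkbia values was not tested.

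Nfkbib encodes IkB beta, which is degraded more slowly. It was at 12.5, 20.2 and 19.2 CPM in the case libraries (5, 6, 9) against 21.2, 15.2 and 14.2 in the controls (5, 6, 10). The libraries numbered 5 were the lowest of case and the highest of control, and the groups overlapped. The log2 fold change was 0.04 (SE 0.26) with all libraries and 0.47 without both libraries numbered 5, where 14.1% of all tested genes and Nfkbib, Nfkbiz and Tnfaip3 among the members stood at an unadjusted p under 0.05 in edgeR (0.0337 for Nfkbib, adjusted p 0.316).

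Nfkbie encodes IkB epsilon, found mainly with Rela and c-Rel pairs. It was at 32.2, 34.8 and 35 CPM in the case libraries (5, 6, 9) against 37.3, 36.5 and 29.3 in the controls (5, 6, 10). All case libraries lay inside the range of the controls. The log2 fold change of -0.02 had a 95% interval of -0.37 to 0.34, and its log2 CPM ranged over 0.35 across libraries, wider than in 7.92% of tested genes.

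Nfkbiz showed the largest difference of the family. It encodes IkB zeta, a nuclear IkB protein that is made after NF-kappaB activation and acts with p50 on secondary response genes such as Il6. It was at 10.4, 12.7 and 17.4 CPM in the case libraries (5, 6, 9) against 21.4, 20.3 and 25.9 in the controls (5, 6, 10), from 130, 192 and 208 counts in the case libraries against 245, 258 and 284 in the controls. All 3 case libraries lay below all 3 control libraries, with means of 13.5 ± 3.60 and 22.5 ± 2.98 CPM, 0.60 times the control level. The log2 fold change was -0.74 (SE 0.24, 95% interval -1.29 to -0.18), with an unadjusted p of 0.0157, rank 174 of the 16066 tested genes, and an edgeR adjusted p of 0.999. It was negative within both title numbers that the groups share, by -1.03 for number 5 and -0.66 for number 6. Since the groups did not overlap, any case library set against any control gives a negative value, so these signs add no support.

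The Nfkbiz difference was between -0.96 (without case 9) and -0.55 (without case 5) with 1 library left out, and -0.58 without both libraries numbered 5. It had an unadjusted p above 0.05 only without control 10 (log2 fold change -0.59, p 0.0717), and its adjusted p in edgeR, DESeq2 and limma-voom fits, over all alternatives run, ranged from 0.355 to 1.0. Markers of oral epithelium, a tissue that also uses Nfkbiz, were high in control 5: the 7 summed to 3593 CPM there and to between 19.3 and 55.5 CPM elsewhere. Without control 5 the log2 fold change of Nfkbiz was -0.77. Of the 13 marker lists, the summed level of T cell markers alone did not overlap, at 257 to 351 CPM in case and 234 to 252 in control. The list has 8 markers (Cd5 at 0 in control 5), and its groups were apart by little, in the direction opposite to Nfkbiz. Gene by gene, 0 of 7 tested T cell markers did not overlap, against 8.47% of all tested genes. Higher in case without overlap were 3 of 8 B cell and 3 of 6 mast cell markers, against 651 of all 16066 tested genes. Lower without overlap were 2 of 7 endothelial markers and 1 of 7 each for osteoclast, periodontal ligament and oral epithelium, against 710 of all 16066 tested genes. The part of these markers in the result was not tested.

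Tnfaip3 encodes A20, an enzyme that edits ubiquitin chains on upstream signalling proteins and thereby shuts the pathway off. It was at 35.2, 36.6 and 32.5 CPM in the case libraries (5, 6, 9) against 33.9, 53.1 and 43.3 in the controls (5, 6, 10). Control 6 and control 10 lay above all case libraries, and control 5 lay among them. The means were 34.8 ± 2.08 and 43.4 ± 9.60 CPM, a log2 fold change of -0.32 (SE 0.19, 95% interval -0.76 to 0.12), with an unadjusted p of 0.131 and an edgeR adjusted p of 0.999. Without control 5 the log2 fold change was -0.47 with an unadjusted p of 0.0261 in edgeR (adjusted p 0.619), where 7.32% of all tested genes had a p under 0.05; without control 6 it was -0.12.

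**Figure D3:**
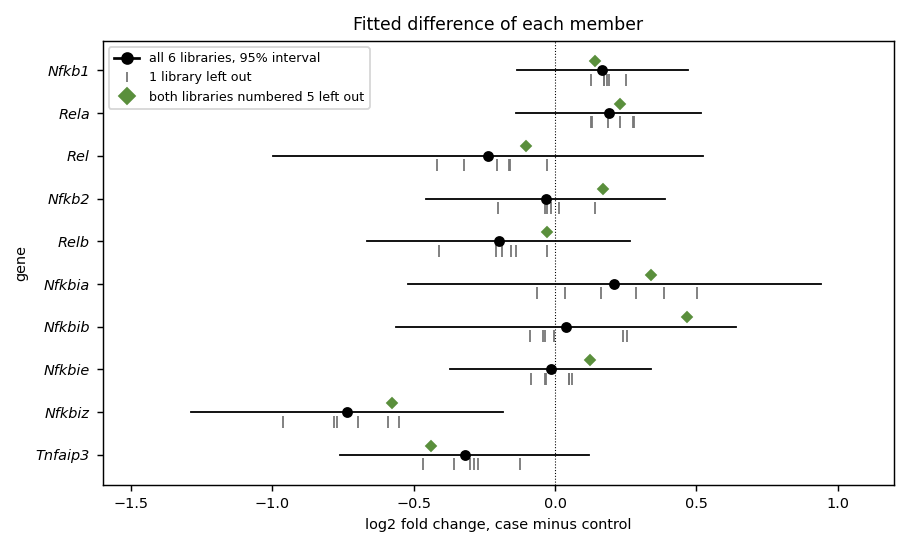
Log2 fold change of each member, case minus control, from edgeR: black points and lines are the fit on 6 libraries with its 95% interval, grey marks the fits with 1 library left out, and green diamonds the fit without both libraries numbered 5. Only the interval of Nfkbiz (-1.29 to -0.18) lies away from 0, before adjustment over all genes.

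Counts of a member per count of Rela in the same library do not depend on how libraries are scaled. Of the 9 other members, 3 had ratios that did not overlap between the groups, all lower in case: Nfkbiz, Tnfaip3 and Relb. Of all tested genes, 13% had ratios to Rela that did not overlap and were lower in case, and Rela itself had a log2 fold change of 0.19. Nfkbiz had 0.0944, 0.105 and 0.133 counts per Rela count in the case libraries (5, 6, 9) against 0.222, 0.177 and 0.243 in the controls (5, 6, 10). Its mean ratio was 0.111 ± 0.0201 in case and 0.214 ± 0.0334 in control. Tnfaip3 had 0.321, 0.302 and 0.249 in the case libraries against 0.352, 0.465 and 0.406 in the controls, and Relb 0.203, 0.219 and 0.275 in the case libraries against 0.332, 0.298 and 0.294 in the controls. The ratio of Nfkbia to Rela overlapped, at 0.963 ± 0.332 in case and 0.954 ± 0.177 in control.

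Within the non-canonical pair, Relb had 0.440, 0.413 and 0.456 counts per Nfkb2 count in the case libraries (5, 6, 9) against 0.472, 0.501 and 0.501 in the controls (5, 6, 10). The ratio varied little inside each group, and all case libraries lay below all controls, but by little. The nearest were case 9 at 0.456 and control 5 at 0.472, resting on 429 and 366 counts of Relb. The counting error of these ratios was not worked out. Of all tested genes, 1.64% had ratios to Nfkb2 that did not overlap and were lower in case, and of the 9 other members 2 were among them, Relb and Nfkbiz. The mean log2 CPM of the 5 inhibitors minus that of the 5 subunits was -0.62, -0.24 and -0.41 in the case libraries (5, 6, 9) against -0.37, -0.31 and -0.13 in the controls (5, 6, 10). These overlapped, with a difference of medians of -0.10 that was -0.01 without case 5 and -0.20 without case 6. Nfkbiz, whose product is nuclear, is among the inhibitors averaged and had the largest difference of the members. Its log2 CPM minus its own mean was -0.72, -0.43 and 0.02 in the case libraries against 0.31, 0.23 and 0.59 in the controls. Its share of the inhibitor minus subunit difference was not worked out. The ratios carry no test. They were chosen after values of these data had been seen: a first, mixed set of ratios was replaced by all 9 other members per Rela and all 9 per Nfkb2, and Nfkb2 was taken as a denominator after its ratio to Relb was known.

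**Figure D4:**
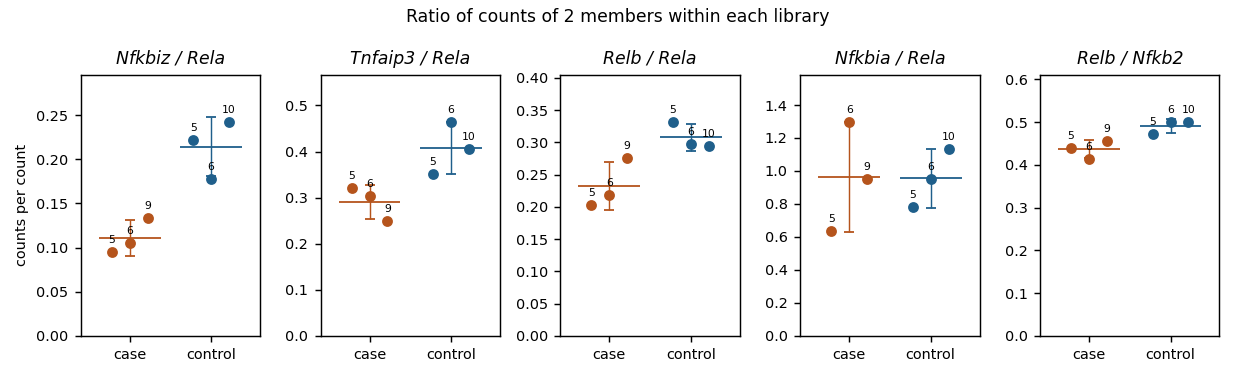
Counts of one member per count of another in each library, on axes from 0, labelled by title number; horizontal lines are group means and error bars SD (n = 3). Ratios of Nfkbiz, Tnfaip3 and Relb to Rela and of Relb to Nfkb2 are lower in all 3 case libraries, and Nfkbia to Rela overlaps.

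Likeness between members was measured as the root mean square distance of their log2 CPM over the 6 libraries, each centred on its own mean. Of 45 pairs, the closest were Nfkb2 with Relb (0.0987) and Nfkb1 with Rela (0.0996). Many other genes lay at least as close: of the 9315 described next, 0.880% were as near to Nfkb2 as Relb was and 0.311% as near to Relb as Nfkb2 was. For the other pair 2.51% were as near to Nfkb1 as Rela was, and 3.04% as near to Rela as Nfkb1 was. The next pair of members was Nfkb1 with Nfkbie (0.161), and the farthest were Nfkbia with Rel (0.657) and Nfkbia with Nfkbiz (0.564). Nfkbiz was highest in control 10 and Nfkbia in case 6, and both were lowest in case 5. A distance of this kind is larger for genes that vary more. The 6 members with a consensus match had ranges of log2 CPM from 0.35 (Nfkbie) to 1.31 (Nfkbiz), and the 3 without one from 0.30 (Nfkb1) to 0.75 (Nfkbib).

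Among 9315 other genes whose mean reached 10 CPM, leaving out symbols that begin with LOC or RGD, the nearest to Nfkbia was Plaur, the urokinase receptor, at a distance of 0.096. Plaur was at 47.9, 96.8 and 90.2 CPM in the case libraries (5, 6, 9) against 55.4, 80.3 and 89.5 in the controls (5, 6, 10), low in the same 2 libraries. The nearest to Nfkbiz was B3galnt1, a glycosyltransferase, at 0.126; to Tnfaip3, Tmem106c (0.0816); to Nfkbib, Cd99 (0.0683); and to Nfkbie, Ints5, a subunit of the Integrator complex (0.0183). For the subunits these were Ttc7b (Nfkb1, 0.0321), Zdhhc7 (Rela, 0.0340), Ppp1r11 (Nfkb2, 0.0421), Wdr83os (Relb, 0.0655) and Tmem71 (Rel, 0.0763). Distances were smallest for Nfkbie, Nfkb1 and Rela, the members that varied least across the 6 libraries.

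Kinases, adaptors and receptors that act before NF-kappaB had medians near 0, and 0 of them passed over all genes. Of 29 tested kinases and adaptors upstream, 16 had a positive and 13 a negative log2 fold change, with a median of 0.01. At an unadjusted p under 0.05 stood 2, both higher in case, against 1.88% of all tested genes in that direction. Rnf31, the catalytic subunit of the complex that builds linear ubiquitin chains, was at 44.9, 42.8 and 47.1 CPM in the case libraries (5, 6, 9) against 35.8, 30.5 and 30.2 in the controls (5, 6, 10). Its log2 fold change was 0.48 (SE 0.14, unadjusted p 0.0101, edgeR adjusted p 0.999) with groups apart. Ikbkb, the kinase subunit that marks the cytoplasmic inhibitors, was at 81.3, 79.95 and 74.1 CPM in the case libraries against 64.2, 67.1 and 59.1 in the controls, a log2 fold change of 0.31 (SE 0.13, unadjusted p 0.0463, edgeR adjusted p 0.999). Cul1, a scaffold of the ligase that then ubiquitinates them, stood apart the other way, with a log2 fold change of -0.22 (SE 0.13).

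Of the receptors, 11 of 19 tested genes were positive, with a median of 0.03. At an unadjusted p under 0.05, 2 were lower in case, against 2.27% of all tested genes. Tnfrsf12a, the receptor of the cytokine TWEAK, was at 8.37, 11.9 and 7.29 CPM in the case libraries (5, 6, 9) against 23.0, 17.0 and 28.6 in the controls (5, 6, 10), a log2 fold change of -1.31 (SE 0.28, unadjusted p 0.00183, edgeR adjusted p 0.999). Il1r1, the signalling receptor of interleukin 1, had a log2 fold change of -0.62 (SE 0.26, unadjusted p 0.0479, edgeR adjusted p 0.999). It was at 42.3, 34.7 and 42.0 CPM in the case libraries against 50.4, 45.2 and 87.3 in the controls, with control 10 far above the rest. Cd40, a receptor that feeds both arms, was at 8.13, 10.7 and 11.3 CPM in the case libraries against 7.25, 8.01 and 7.11 in the controls, apart by little. Of the ligands 9 of 13 could be tested, 5 with a positive and 4 with a negative log2 fold change and a median of 0.16. Among these 9, 0 had an unadjusted p under 0.05 in edgeR. Tnf, Lta, Tnfsf11 and Cd40lg had too few counts, so the median leaves them out. Tnf had 0, 1 and 2 counts in the case libraries (5, 6, 9) against 3, 13 and 4 in the controls (5, 6, 10). Tnfsf11 had 0 counts in every library, 1 of 11182 such genes among the 37203 deposited. How reads were counted is not given, so this 0 is not evidence that Tnfsf11 was not expressed. Il1b was at 15.8, 19.1 and 73.8 CPM in the case libraries against 24.5, 154.7 and 51.4 in the controls, and its groups overlapped.

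The other inhibitors and feedback regulators lay in a narrow range. Of 16 tested, 0 had an unadjusted p under 0.05 and 0 had groups that did not overlap, and the log2 fold changes ran from -0.25 (Otud7b, a deubiquitinase) to 0.16 (Irak3, an inhibitory kinase-like protein). Tnip1, a partner of A20 and the most abundant of them in CPM, was at 195.4, 251.5 and 242.0 CPM in the case libraries (5, 6, 9) against 190.2, 248.3 and 229.0 in the controls (5, 6, 10). Cyld, the deubiquitinase that acts beside A20, had a log2 fold change of 0.13 (SE 0.19).

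Target genes were mostly on the negative side. Of 32 tested, 26 had a negative log2 fold change, with a median of -0.42, against a median of -0.02 for all tested genes. At an unadjusted p under 0.05, 8 were lower (2.27% of all tested genes) and 2 higher in case (1.88%), and 0 passed over all genes. Il6 rested on 4, 5 and 2 reads in the case libraries against 18, 38 and 48 in the controls, with a log2 fold change of -3.38 (SE 0.56). Ier3, an early response gene, was at 15.6, 15.9 and 19.5 CPM in the case libraries against 30.1, 34.9 and 30.4 in the controls, a log2 fold change of -0.90 (SE 0.17). Vcam1, an adhesion molecule of endothelium and marrow stroma, went the other way at 126.2, 188.2 and 152.3 CPM in the case libraries against 63.2, 89.7 and 93.1 in the controls (0.92, SE 0.21). The edgeR adjusted p of each of these 3 was 0.999. With 1 library left out, between 20 (without control 6) and 28 (without case 9) of the 32 were negative, and the median was between -0.13 and -0.74 in the same fits. Without both libraries numbered 5 the list had 23 negative genes and a median of -0.35. At an unadjusted p under 0.05 in edgeR it then had 7 lower, against 7.0% of all tested genes, and 2 higher, against 7.07%. These fits without libraries were chosen after seeing the data. The list was drawn up with the low cytokine values of the case libraries already known, so its direction is not independent evidence.

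Of the 6 target genes of the non-canonical arm, 4 had a negative log2 fold change, against 53.7% of all tested genes. Their median was -0.54, against -0.02 for all tested genes, and 0 of the 6 had groups that did not overlap. Cxcl13, a chemokine for B cells, was at 8.53, 19.2 and 17.3 CPM in the case libraries (5, 6, 9) against 18.7, 41.4 and 32.2 in the controls (5, 6, 10), a log2 fold change of -1.04 (SE 0.38, unadjusted p 0.0283, edgeR adjusted p 0.999), with overlapping groups. Cxcl12, the stromal chemokine, was highest in case 6 at 1251 CPM and lowest in control 6 at 348. Ccl21 reached 101.9 CPM in control 6 and 22.5 in control 10 and was between 0.349 and 5.62 CPM in the other 4 libraries. Its lowest library was control 5. Ccl19 was likewise highest in control 6 (59.0 CPM) and lowest in control 5 (0.0873 CPM).

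**Figure D5:**
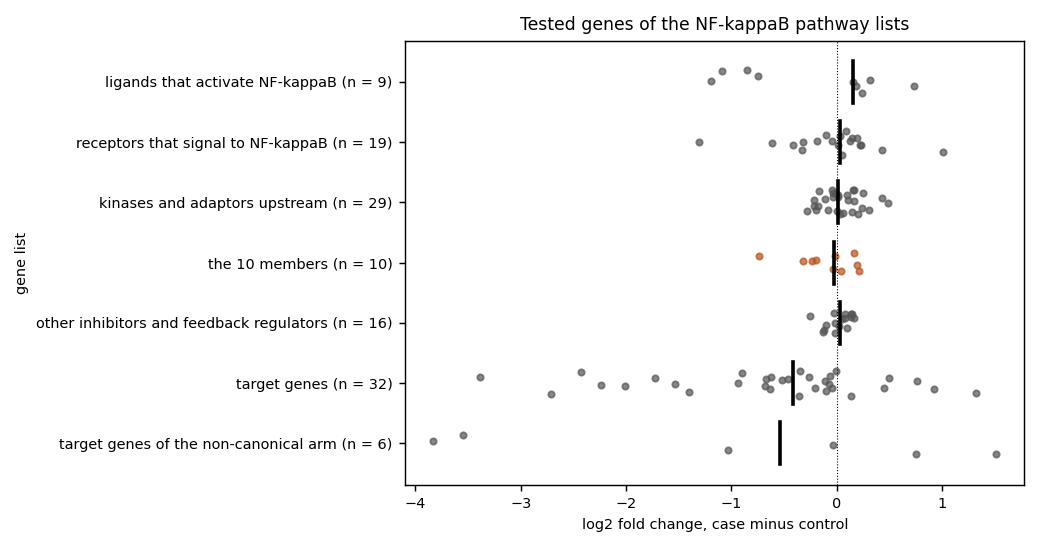
Log2 fold change, case minus control, of each tested gene in 6 pathway lists and of the 10 members; each point is a gene, black bars are list medians, and vertical scatter has no meaning. Medians lie between 0.01 and 0.16 for kinases and adaptors, receptors, other inhibitors and ligands, at -0.42 for the 32 target genes and at -0.54 for the 6 target genes of the non-canonical arm.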

How the data were processed

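RNA was extracted with TRIzol and single-end libraries were built (Ion Total RNA-Seq Kit v2.0), per the labels' protocols. The authors deposited their data as raw counts, 1 row per gene symbol and 1 column per library, and columns were matched by title. How reads were aligned and counted, on which build and whether by strand, is not given in the sources used here, so overlapping genes cannot be told apart.

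After filterByExpr and TMM scaling, 16066 genes were tested by group with edgeR 4.0.16 (quasi-likelihood, R 4.3.3), with p-values adjusted over all of them. SEs are the log2 fold change divided by the square root of F. Log2 CPM used a prior count of 2; a count of 0 allows 0.199 to 0.273 CPM (3 counts). The fit was first tested on simulated counts. Alternatives were DESeq2 1.42.0, limma-voom (limma 3.58.1), other scalings and filters, the title number as a block, and left-out libraries.

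The members, the 6 pathway lists and the 13 marker lists were chosen with earlier results of these data known. Adgre1 was matched as Emr1; Traf5, Saa3, Ocstamp and Krt6a were not analysed here. The naming rule took all members, up to 4 genes per pathway list with the smallest p, its most abundant gene, and each member's nearest gene; the text gives a part of them. Promoter stretches are from RefSeq (GRCr8), a build not tied to the counts.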

Additional observations from a re-analysis of the deposited data

How the results depend on the processing

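In all 16 alternatives 0 members passed the threshold. Nfkb1, Rel, Rela, Relb, Nfkbiz and Tnfaip3 kept their direction in each, though with 1 library left out Rel ranged from -0.42 (without control 10) to -0.03 (without control 5) and Relb from -0.41 (without case 9) to -0.03 (without case 5). The log2 fold change of Nfkbie turned positive with DESeq2 size factors (0.0083), library totals (0.034) and DESeq2 (0.0080), as did Nfkb2 with library totals (0.019). DESeq2 called 21 genes, 0 of them members, where edgeR called 0. Leaving out 1 library gave 0 (without case 5, among others) to 2 genes past the threshold (without control 5). Members at an unadjusted p under 0.05 in edgeR ranged from 0 without control 10 (2.41% of all tested genes) to 2 without control 5 (7.32%). Members with separate groups were 2 to 4, against 13.9% to 28.9% of all tested genes. The same fits moved Nfkb2 between -0.20 and 0.14, Nfkbia between -0.062 and 0.50 and Nfkbib between -0.089 and 0.25. They moved the inhibitor minus subunit difference between -0.20 and -0.014 and Nfkbie between -0.084 and 0.059. Without both libraries numbered 5, 3 members had an unadjusted p under 0.05 in edgeR (14.1% of all tested genes). In that fit 6 members had separate groups (46.8% of all tested genes), the members' median was 0.13, and Nfkb2 (0.17) and Nfkbie (0.12) turned positive. The causes were not tested.

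With the title number as a replicate block the members' median was -0.20 and Nfkbib turned to -0.17, with 0 genes past the threshold. Numbers 5 and 6 alone are shared, so this is a fit on 2 pairs. Deviations from the group means correlated across genes at 0.38 between case 5 and control 5 and at 0.14 between case 6 and control 6, while case 9 and control 6, with different numbers, reached 0.28. Rel had 36 to 71 counts per library and an SE of 0.32, while Nfkbia had 859 to 2371 counts and an SE of 0.31, and what sets the spread of either was not tested.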
